A study of Mus musculus with 25 samples.

Results

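The transcripts of 10 immediate early genes were read in 25 bulk RNA libraries of CD8+ T cells that had entered B16F10 tumours, a transplantable mouse melanoma. Fos, Fosb, Fosl2, Jun, Junb and Jund encode the Fos and Jun subunits of the transcription factor AP-1, and Atf3 encodes a related bZIP protein that can pair with Jun proteins. Egr1 and Egr2 encode zinc finger transcription factors, and Ier2 encodes a nuclear protein of the early response. The genes were taken by name, 10 of the 23366 gene symbols in the deposited table. All 10 passed the filter on low values, a value of at least 1 in at least 3 libraries, which 12251 symbols passed.

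The comparison at issue is which genes change in CD8+ T cells inside a tumour when Prdm1, c-Maf or both are lost. All mice were of strain C57BL/6 and all carried B16F10 tumours. There were 3 libraries of Prdm1/c-Maf cDKO cells, from which both genes had been removed, 3 of Prdm1 cKO cells, 3 of c-Maf cKO cells and 16 of wild-type cells. In a conditional knockout (cKO) deletion is limited to chosen cells, and in a cDKO it covers a pair of genes. The sources used here give neither the deleting line nor the animals' age, nor whether each library came from a separate animal, so each p-value reflects library-to-library spread, which may be technical. Libraries go by the codes of their columns: C2, A1 and A2 for cDKO, A5, A6 and A9 for Prdm1 cKO, and B10, B11 and C1 for c-Maf cKO.

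Immediate early genes are transcribed within minutes of a stimulus, from promoters that need no newly made protein. In T cells the stimulus is mainly the antigen receptor, whose MAP kinase, calcium and NF-κB branches act through factors such as SRF, the Elk proteins, CREB and NFAT. AP-1 forms as a dimer of bZIP proteins and, together with NFAT, switches on genes of activated T cells. Blimp-1, the product of Prdm1, is a zinc finger repressor of effector lymphocytes, and c-Maf, the product of Maf, is itself a bZIP protein.

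The table holds a normalised expression value per gene and library, whose scale the sources do not state and whose sequencing depth is unknown. Column totals ran from 389650 to 475956 and the genes above 0 per library from 12749 to 15161. Prdm1 had 1.18 to 4.69 in cDKO and 0.41 to 4.71 in Prdm1 cKO, against 6.45 to 24.85 in wild type. Maf was low in every group, at 0 to 0.18 in cDKO, 0.41 to 1.09 in Prdm1 cKO, 0 to 0.93 in c-Maf cKO and 0.03 to 0.95 in wild type. The libraries labelled cDKO A1 (0.18) and A2 (0.03) and c-Maf cKO C1 (0.93) lay within the wild-type range, so the level of Maf does not check these labels. Summed over 8 markers, CD8 T cell transcripts reached 1405 to 2740 in cDKO, 1549 to 1908 in Prdm1 cKO, 2661 to 2729 in c-Maf cKO and 1240 to 3528 in wild type. Summed over the 12 measured of 13 macrophage and monocyte markers, values were 109 to 315 in cDKO, 1266 to 3555 in Prdm1 cKO, 172 to 1159 in c-Maf cKO and 53.5 to 1883 in wild type. The knockout groups stand in the table beside their own runs of wild-type columns, called column sets here: set 1 with 7 wild-type and the Prdm1 cKO libraries, set 2 with 4 wild-type and the c-Maf cKO libraries, and set 3 with 5 wild-type and the cDKO libraries.

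Windows of RefSeq promoters (GRCm38.p6, 250 bases before to 50 after the gene start) were read for 8 of the 10 genes, all but Egr1 and Ier2, and 8 motifs were searched on both strands. The stretches upstream of the gene start are shown for Fos, Fosl2, Jun and Egr2, each 5′ to 3′ on the gene's own strand. Of these, Fosl2, Jun and Egr2 passed a test against wild type below, and Fos passed none. Junb, which also passed, is not shown. Capitals mark the motif matches.
Fos, chr12:85473640-85473889, + strand: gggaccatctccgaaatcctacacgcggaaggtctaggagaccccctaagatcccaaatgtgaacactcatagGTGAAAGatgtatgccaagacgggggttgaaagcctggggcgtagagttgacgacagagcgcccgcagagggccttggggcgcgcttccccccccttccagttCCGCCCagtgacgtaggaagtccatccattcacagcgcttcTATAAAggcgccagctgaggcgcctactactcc
Fosl2, chr5:32136222-32136471, + strand: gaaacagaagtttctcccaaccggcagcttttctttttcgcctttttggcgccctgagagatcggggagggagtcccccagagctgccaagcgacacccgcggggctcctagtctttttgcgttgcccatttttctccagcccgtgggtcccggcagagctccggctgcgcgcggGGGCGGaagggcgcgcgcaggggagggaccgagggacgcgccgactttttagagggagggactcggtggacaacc
Jun, chr4:95052223-95052472, - strand: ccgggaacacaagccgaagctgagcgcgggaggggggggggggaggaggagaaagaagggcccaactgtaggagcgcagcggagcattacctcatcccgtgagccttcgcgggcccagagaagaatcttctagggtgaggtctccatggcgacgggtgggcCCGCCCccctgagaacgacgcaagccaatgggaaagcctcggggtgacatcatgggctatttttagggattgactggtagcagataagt
Egr2, chr10:67537619-67537868, + strand: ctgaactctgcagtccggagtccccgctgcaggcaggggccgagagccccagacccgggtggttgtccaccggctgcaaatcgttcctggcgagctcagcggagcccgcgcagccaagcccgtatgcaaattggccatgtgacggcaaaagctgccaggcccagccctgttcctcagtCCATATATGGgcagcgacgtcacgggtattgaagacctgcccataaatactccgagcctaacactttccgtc
The Fos stretch holds a TATAAA box, a GC box (GGGCGG, here as its reverse complement) and GTGAAAG, the core of the sequence that Blimp-1 binds. The Fosl2 and Jun stretches each hold 1 GC box. The Egr2 stretch, 1 of 5 Egr2 windows in the table, holds a CArG box, the element that SRF binds. Among the 8 genes, GGGCGG was present in windows of 6 (Fos, Fosb, Fosl2, Jun, Atf3 and Egr2), against 35.7% of all 32851 windows. GTGAAAG was present in 2 (Fos and Jund), against 4.24% of all windows, and TATAAA in 2 (Fos and Junb), against 13.6%. The CArG box was present in 1 (Egr2), against 1.63%. The AP-1 site TGACTCA, the cyclic AMP element TGACGTCA, the Egr site GCGTGGGCG and TGCTGA, part of the element that Maf proteins bind, were present in 0 of the 8, against 5.202%, 1.79%, 0.612% and 19.5% of all windows. The counts are of genes with a match in any of their windows, of which Egr2 has 5, whereas the percentages are of single windows. The 2 are therefore not like for like. A match is only a description of the letters in these windows.

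Jun and Junb were higher in both genotypes without Prdm1, and none of the 10 genes passed the test without c-Maf alone. In cDKO, Fosl2, Jun and Junb were higher than in wild type, 3 of 10, where 5.09% of all genes tested were called higher. In Prdm1 cKO, Jun, Junb and Egr2 were higher, 3 of 10, where 1.58% of all genes tested were called higher. In c-Maf cKO 0 of 10 were called, and 0% of all genes tested were called. A gene is called at an adjusted p under 0.05 by limma, with Benjamini-Hochberg adjustment over all 12251 genes tested, on log2(value + 1).

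**Figure D1:**
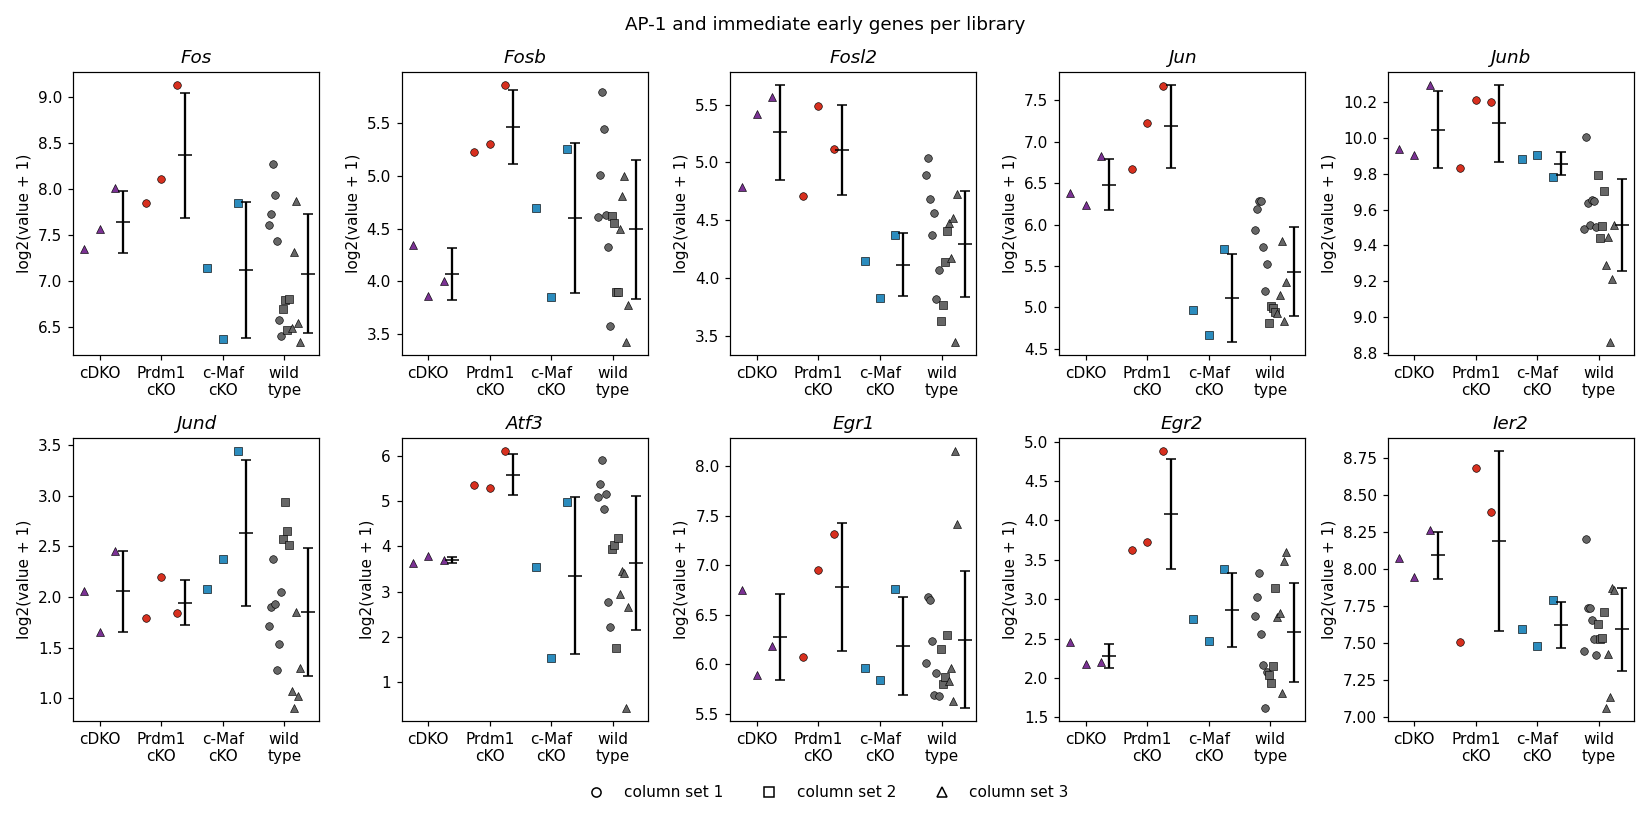
Log2-transformed value (y axis) of each of the 10 genes in every library, by genotype (x axis), with bars for the mean and SD of the transformed values. Before transformation Jun lies between 101 and 203 in Prdm1 cKO, above the highest wild-type library at 77.1. Fosl2, also before transformation, lies at 25.2 or more in all 6 libraries without Prdm1 and overlaps the wild type, which reaches 31.9.

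Among the Fos proteins, Fos is the prototype AP-1 subunit, which needs a Jun partner to bind DNA. It had 161, 188 and 257 in the cDKO libraries C2, A1 and A2, 229.7, 274 and 559 in the Prdm1 cKO libraries A5, A6 and A9, and 140.4, 81.6 and 229 in the c-Maf cKO libraries B10, B11 and C1. Wild-type libraries ran from 79.7 through a median of 110.2 to 308. The Prdm1 cKO mean of 354 ± 179 was the highest of the groups, followed by cDKO at 202 ± 49.4 (SD, n = 3 each), while c-Maf cKO at 150 ± 74.1 (n = 3) and wild type at 148 ± 71.0 (n = 16) did not differ beyond their spread. A9 stood above every wild-type library, and the other knockout libraries lay within the wild-type range.

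Fosb, a close relative of Fos, had 19.3, 13.5 and 15.1 in cDKO, 36.5, 38.4 and 57.4 in Prdm1 cKO, and 24.9, 13.4 and 37.3 in c-Maf cKO. Wild-type libraries had 9.70 at the lowest, 23.0 at the median and 54.7 at the highest. Every cDKO library lay below every Prdm1 cKO library, as in 8.32% of all genes tested, and both groups overlapped the wild type. Fosl2 encodes Fra-2, a Fos protein with no strong activating domain of its own, and had 26.7, 41.7 and 46.5 in cDKO, 25.2, 44.0 and 33.7 in Prdm1 cKO, and 16.7, 13.2 and 19.7 in c-Maf cKO. Wild-type libraries had 9.90, 19.955 and 31.9 at the lowest, median and highest. All 6 libraries without Prdm1 exceeded all 3 c-Maf cKO libraries, and the same held for Jun, given next. Of all genes tested, 11.8% had every cDKO library and 11.2% every Prdm1 cKO library above all c-Maf cKO libraries. The cDKO mean of 38.3 ± 10.3 and the Prdm1 cKO mean of 34.3 ± 9.41 lay within each other's spread.

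Among the Jun proteins, Jun binds DNA as a dimer with itself or with Fos proteins and is the most potent activator of the family. It had 82.3, 74.6 and 112 in cDKO, 101, 148.5 and 203 in Prdm1 cKO, and 30.3, 24.4 and 51.1 in c-Maf cKO. Wild-type libraries had 27.0, 37.2 and 77.1 at the lowest, median and highest. The 3 Prdm1 cKO libraries stood above all 16 wild-type libraries and so did C2 and A2 of cDKO, while A1 lay just under the highest wild-type library. The means were 151 ± 51.0 in Prdm1 cKO, 89.8 ± 20.01 in cDKO and 35.3 ± 14.03 in c-Maf cKO (SD, n = 3 each), against 45.2 ± 18.1 in wild type (n = 16). c-Maf cKO had the lowest mean and wild type the next, within each other's spread.

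Junb, a weaker activator that can restrain Jun, had 981, 958 and 1259 in cDKO, 912, 1185 and 1176 in Prdm1 cKO, and 943, 959 and 881 in c-Maf cKO. Wild-type libraries had 463, 728 and 1029 at the lowest, median and highest. All 9 knockout libraries stood above the wild-type median, and the groups overlapped, since wild-type library A4 was at 1029. Jund, the Jun gene with the steadiest expression in most tissues, had 3.17, 2.15 and 4.49 in cDKO, 2.46, 3.60 and 2.59 in Prdm1 cKO, and 3.23, 4.18 and 9.90 in c-Maf cKO, against 0.87, 2.67 and 6.66 at the lowest, median and highest of wild type. Its values were low, and the c-Maf cKO library C1 was the highest of the 25.

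Atf3, a stress-induced bZIP factor, had 11.4, 12.7 and 11.9 in cDKO, 40.3, 37.9 and 68.3 in Prdm1 cKO, and 10.7, 1.88 and 30.5 in c-Maf cKO. The wild type alone ran from 0.34 through 12.1 to 59.3, wider than any knockout group, so that only the Prdm1 cKO library A9 stood outside it. Egr1, an early target of SRF and the Elk factors, had 107, 58.5 and 71.5 in cDKO, 66.3, 123 and 159 in Prdm1 cKO, and 61.3, 56.3 and 107 in c-Maf cKO. Wild-type libraries had 48.7, 62.3 and 284 at the lowest, median and highest, and the 2 highest of all 25 libraries were the wild-type libraries B4 at 284 and B6 at 170.0. Egr1 gave no separation between groups.

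Egr2, which in T cells is known for its part in restraint after antigen receptor signalling, had 4.51, 3.53 and 3.60 in cDKO, 11.4, 12.2 and 28.6 in Prdm1 cKO, and 5.71, 4.54 and 9.41 in c-Maf cKO. Wild-type libraries had 2.07, 5.37 and 11.1 at the lowest, median and highest. The 3 Prdm1 cKO libraries stood above all 16 wild-type libraries, A5 narrowly, while the 3 cDKO libraries were in the lower part of the wild-type range. Ier2 had 268, 245 and 306 in cDKO, 180.9, 409 and 332 in Prdm1 cKO, and 192, 177 and 219.8 in c-Maf cKO, against 132, 190.3 and 294 at the lowest, median and highest of wild type. The cDKO and Prdm1 cKO means, 273 ± 30.5 and 307 ± 116, lay above those of c-Maf cKO, 196 ± 21.5, and of wild type, 195 ± 38.6. Both overlapped the wild type.

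Prdm1/c-Maf cDKO against wild type. In the double knockout 2 Jun genes and 1 Fos gene were higher: Jun by 1.05 ± 0.30 (SE, adjusted p = 0.0221), Fosl2 by 0.96 ± 0.26 (adjusted p = 0.0140) and Junb by 0.53 ± 0.15 (adjusted p = 0.0164) on the log2 scale. The other 7 did not pass the test. Ier2 had a log2 fold change of 0.50 ± 0.19 (adjusted p = 0.0776) and Fos of 0.56 ± 0.38 (adjusted p = 0.397), and Jund, Atf3, Egr1, Egr2 and Fosb lay between -0.42 and 0.21. The median over the 10 genes was 0.35, beside -0.03 over all genes tested. Unadjusted, limma's p was under 0.05 for 4 of the 10 (Fosl2, Jun, Junb and Ier2), against 24.8% of all genes tested.

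None of the 10 had every cDKO library above all 16 wild-type libraries, where 3.12% of all genes tested did. Against the 5 wild-type libraries of its own column set, 5 of 10 (Fosl2, Jun, Junb, Atf3 and Ier2) had every cDKO library above, where 7.37% of all genes did. The codes of these wild-type libraries all begin with B, and those of the cDKO libraries with A or C. Code letter and genotype thus cannot be told apart within this set, and the labels do not state what the letter means. In that set Fosl2 had a mean of 38.3 in cDKO and 19.1 ± 5.97 in wild type, Jun 89.8 and 36.9 ± 10.8, and Junb 1066 and 621 ± 104. The exact two-sided permutation p of these 3 was 0.0179 each, the smallest that the 56 splits allow. There were 30 such tests, run over 10 genes and 3 comparisons. After Benjamini-Hochberg adjustment over the 30 tests no test passed, and the permutation p was 0.0893 for each of these 3 genes. With the column set as covariate all 3 passed, where 4.39% of all genes were called higher, and the log2 fold changes were 1.28 for Jun (adjusted p = 0.00316), 0.99 for Fosl2 (adjusted p = 0.0305) and 0.78 for Junb (adjusted p = 0.00107).

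These calls depended on single libraries. Without A2 none of them passed (adjusted p = 0.147 for Fosl2, 0.187 for Jun and 0.201 for Junb), without A1 Fosl2 (0.0926) and Jun (0.0547) did not, and without C2 Jun (0.0540) did not. With the letter of the library code as covariate the adjusted p was 0.134 for Jun, 0.0557 for Fosl2 and 0.0528 for Junb, and with erythroid markers as covariate 0.109 for Jun, 0.0268 for Fosl2 and 0.164 for Junb. Rescaled to the CD3 genes, which puts the median of all genes at 0.31, Jun had an adjusted p of 0.0544. Under quantile normalisation Junb had 0.206, and in a fit of column set 3 alone Fosl2 had 0.110.

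Erythroid transcripts moved with these libraries. Summed over 5 markers they reached 461 to 4236 in cDKO, 221 to 1840 in Prdm1 cKO, 15.8 to 133 in c-Maf cKO and 1.38 to 1567 in wild type, 3 of 5 were called higher in cDKO, and Hba-a2 was at 0 in 1 or more cDKO libraries. Their part in the result was not tested beyond the covariate above. Of the 8 CD8 T cell markers, Cd3g was called lower in cDKO, and 0 were called in Prdm1 cKO. All of them had negative log2 fold changes in both groups. Their median was -0.29 in cDKO and -0.41 in Prdm1 cKO, beside -0.03 and -0.02 over all genes tested. In bulk samples, fewer cells of a type and less RNA per cell cannot be told apart.

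**Figure D2:**
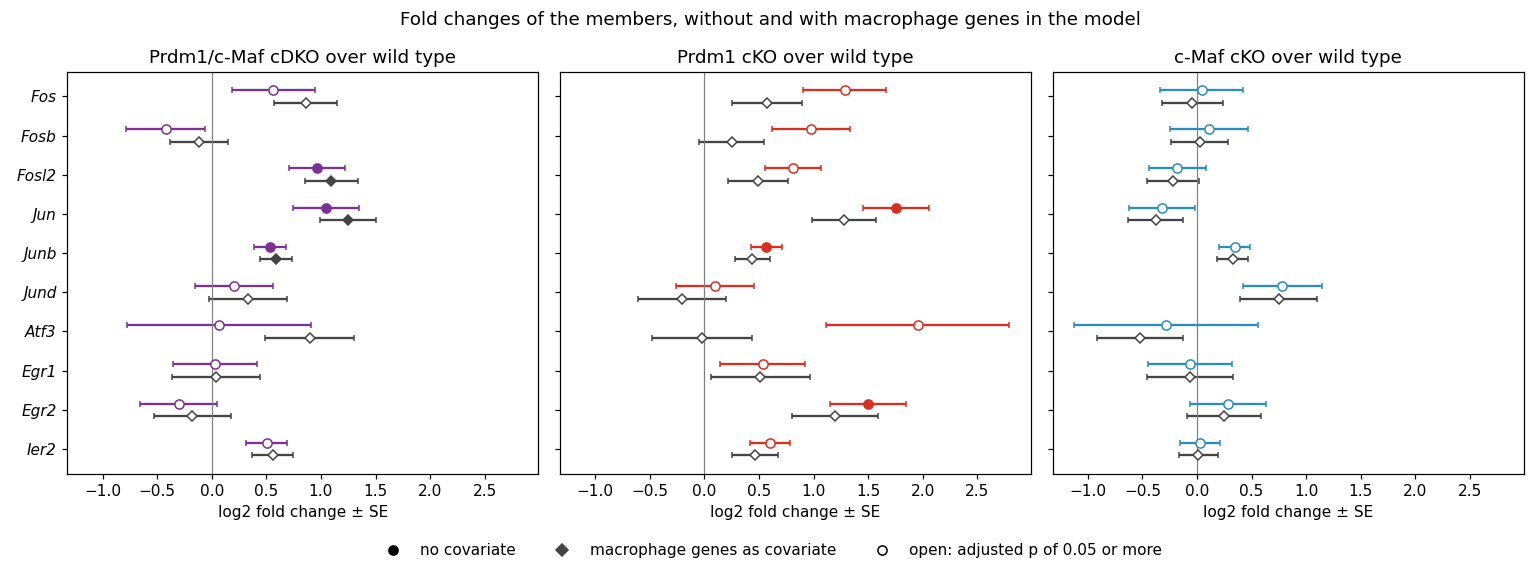
Log2 fold change against wild type (x axis) of the 10 genes (y axis) in each knockout genotype, with bars for the SE. Circles are from the fit without covariate, diamonds from that with the macrophage genes as covariate. Filled points passed limma's test in their own fit. Without covariate Jun reaches 1.05 in cDKO and 1.76 in Prdm1 cKO. No c-Maf cKO point and no Prdm1 cKO diamond is filled.

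Prdm1 cKO against wild type. Without Prdm1 alone Jun was higher by 1.76 ± 0.30 on the log2 scale (SE, adjusted p = 0.0029), Egr2 by 1.497 ± 0.35 (adjusted p = 0.0205) and Junb by 0.57 ± 0.15 (adjusted p = 0.0297). The other 7 had positive log2 fold changes and did not pass: Atf3 had 1.95 ± 0.84 (adjusted p = 0.183), Fos 1.28 ± 0.38 (0.0560), Fosb 0.97 ± 0.36 (0.116), Fosl2 0.81 ± 0.26 (0.0686), Ier2 0.60 ± 0.19 (0.0631), Egr1 0.53 ± 0.39 (0.464) and Jund 0.09 ± 0.36 (0.918). The median over the 10 genes was 0.89, beside -0.02 over all genes tested. Before adjustment 8 of the 10 had a p under 0.05, against 20.6% of all genes tested.

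Jun and Egr2 had every Prdm1 cKO library above all 16 wild-type libraries, 2 of 10, where 0.824% of all genes did. In column set 1 Jun had a mean of 151 in Prdm1 cKO and 59.9 ± 16.3 in the 7 wild-type libraries, Egr2 17.4 and 5.11 ± 2.45, and Junb 1091 and 801 ± 108. The exact two-sided permutation p was 0.00833 for Jun and Egr2, the smallest that the 120 splits allow, and 0.0167 for Junb. After Benjamini-Hochberg adjustment over all such tests this permutation p was 0.0893 for each of these genes, and none of them passed.

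With the column set as covariate 1 of 10 was called higher, Jun, where 0.18% of all genes were. It had a log2 fold change of 1.31 (adjusted p = 0.0149), while Egr2, with 1.57 (adjusted p = 0.0534), and Junb did not pass. The Egr2 call ended without A6 (adjusted p = 0.0514) or A9 (0.205), and so did that of Junb (0.156 without A6 and 0.177 without A9). Jun passed without each of the 25 libraries in turn. Fos passed without A7 (adjusted p = 0.0294), B3 (0.0416), A4 (0.0427), A8 (0.0451), A3 (0.0493) or A5 (0.0499).

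Macrophage transcripts were high in the same libraries. The mean log2(value + 1) of Lyz2, Csf1r and C1qa, genes of macrophages, was 6.55 to 8.09 in Prdm1 cKO, against 1.07 to 7.30 in wild type. In A5, A6 and A9 Lyz2 had 643, 731 and 1736. Of the 12 measured macrophage and monocyte markers 2, Emr1 and Ctss, were called higher in Prdm1 cKO, and none was at 0 in any Prdm1 cKO library. With the mean of the 3 genes as covariate 0 of the 10 early genes were called, as against 0.106% of all genes, 13 in number. Jun then had a log2 fold change of 1.28 ± 0.29 (adjusted p = 0.0724), Egr2 of 1.20 ± 0.39 (adjusted p = 0.222), Junb of 0.44 ± 0.16 (adjusted p = 0.283), Fos of 0.57 ± 0.32 (adjusted p = 0.522) and Atf3 of -0.023 ± 0.46 (adjusted p = 0.990).

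In cDKO the macrophage transcripts were low, and the same covariate left the calls in place. The 3-gene mean was 1.57 to 4.44, 6 markers (C1qa, C1qb, C1qc, Mrc1, Fcgr1 and Ms4a7) were at 0 in 1 or more cDKO libraries, and 0 of the 12 markers were called against wild type. With it in the fit these 3 were called higher, as were 5.12% of all genes. Jun had a log2 fold change of 1.25 ± 0.26 (adjusted p = 0.00247), Fosl2 of 1.10 ± 0.24 (adjusted p = 0.00414) and Junb of 0.59 ± 0.15 (adjusted p = 0.00873). The cDKO library with the lowest 3-gene mean, A2, had the highest Fos, Fosl2, Jun, Junb, Jund and Ier2 of the cDKO group. That with the highest 3-gene mean, C2, had the highest Fosb, Egr1 and Egr2, and A1 the highest Atf3. In c-Maf cKO the library with the highest 3-gene mean, C1 (6.50), had the highest value of every early gene but Junb. In Prdm1 cKO that library, A9 (8.09), had the highest Fos, Fosb, Jun, Atf3, Egr1 and Egr2, and A6 the highest Fosl2, Junb, Jund and Ier2. These orders within groups of 3 libraries were not tested.

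c-Maf cKO against wild type. No gene of the group passed the test after loss of c-Maf alone. The largest log2 fold changes were 0.78 ± 0.36 for Jund and 0.34 ± 0.15 for Junb (adjusted p = 0.800 each), and the median over the 10 genes was 0.04, beside 0.00 over all genes tested. By limma, 2 of the 10 (Junb and Jund) had an unadjusted p under 0.05, against 6.16% of all genes. Against the 4 wild-type libraries of column set 2, 0 of 10 had an exact permutation p under 0.05, where the 35 splits allow 0.0286 at the lowest. The Jund mean there was 5.77 in c-Maf cKO and 5.41 ± 0.87 in wild type.

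Between the knockout groups, Jun was higher in both groups without Prdm1 than in c-Maf cKO, by 1.37 ± 0.39 in cDKO (adjusted p = 0.0269) and by 2.08 ± 0.39 in Prdm1 cKO (adjusted p = 0.0153), on the log2 scale. Fosl2 was higher in cDKO than in c-Maf cKO by 1.14 ± 0.33 (adjusted p = 0.0300). Thus 2 of 10 were called higher in cDKO against c-Maf cKO, where 3.78% of all genes were, and 1 of 10 in Prdm1 cKO against c-Maf cKO, where 0.588% were. Every cDKO library lay above every c-Maf cKO library for 3 of 10 (Fosl2, Jun and Ier2), where 11.8% of all genes did, and below for 1 of 10 (Egr2), where 14.9% did. Every Prdm1 cKO library lay above every c-Maf cKO library for 5 of 10 (Fos, Fosl2, Jun, Atf3 and Egr2), where 11.2% of all genes did. The number called against c-Maf cKO was 0 for cDKO without A2, B10 or B11 and 1 without A1, and 0 for Prdm1 cKO without A9, B10 or B11 and 2 without A5. With the column set as covariate both counts were 0, where 1.08% of all genes were called for cDKO and 0% for Prdm1 cKO, in a fit that joins groups of different sets only through their wild-type libraries.

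Between cDKO and Prdm1 cKO 0 of 10 passed, where 0.392% of all genes did, and 2 of 10 had an unadjusted p under 0.05 by limma, against 12.6% of all genes. These were Egr2, with a log2 fold change of -1.80 ± 0.45 (adjusted p = 0.0684), and Fosb, with -1.40 ± 0.47 (adjusted p = 0.171). Egr2, Fosb and Atf3, 3 of 10, had every cDKO library below every Prdm1 cKO library, where 8.32% of all genes did. Egr2 had 3.53 to 4.51 in cDKO against 11.4 to 28.6 in Prdm1 cKO, Fosb 13.5 to 19.3 in cDKO against 36.5 to 57.4 in Prdm1 cKO, and Atf3 11.4 to 12.7 in cDKO against 37.9 to 68.3 in Prdm1 cKO. The macrophage 3-gene mean separated the same libraries, at 1.57 to 4.44 in cDKO against 6.55 to 8.09 in Prdm1 cKO, and with it as covariate the log2 fold changes were -1.37 for Egr2 (adjusted p = 0.587) and -0.37 for Fosb (adjusted p = 0.889). Departure from additivity, the cDKO effect less the sum of both single knockout effects, passed for 0 of 10, where 0.00816% of all genes passed, and 2 of 10, Egr2 and Fosb, had an unadjusted p under 0.05, against 11.7% of all genes. Egr2 had -2.08 ± 0.57 (adjusted p = 0.141) and Fosb -1.51 ± 0.59 (adjusted p = 0.303).

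Variation within the wild type. Atf3, Fos and Fosb followed the macrophage genes across the 16 wild-type libraries, where genotype does not differ. Pearson's r with the 3-gene mean was 0.94 for Atf3 (Spearman's rho 0.95, adjusted permutation p = 1e-04 for both, the smallest that 100000 permutations can give over 10 genes), 0.75 for Fos (rho 0.77, adjusted p = 0.0057 and 0.0031) and 0.72 for Fosb (rho 0.76, adjusted p = 0.00603 and 0.0031). Jun had r = 0.59 (rho 0.53, adjusted permutation p = 0.0377 and 0.0596) and Fosl2 r = 0.58 (rho 0.60, adjusted permutation p = 0.0377 and 0.0398). The other 5 did not pass: Junb had r = 0.47, Ier2 0.33, Jund 0.27, Egr2 0.21 and Egr1 -0.14.

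Without the 2 libraries farthest from the median of the macrophage mean, B4 and A11, r was 0.95 for Atf3, 0.74 for Fos, 0.68 for Fosb and 0.54 for Jun, and 0.37 for Fosl2. By Pearson's r, Jun (adjusted permutation p = 0.101) and Fosl2 (adjusted permutation p = 0.278) then no longer passed, and the Fosl2 relation rests on those libraries. Ier2 then had r = 0.56 and Junb 0.50, and both passed by Spearman's rho alone (0.62 each, adjusted permutation p = 0.0417). Egr1 had r = 0.28. Within column set 1 (n = 7) r was 0.97 for Atf3, 0.92 for Fos, 0.85 for Fosl2, 0.84 for Jun, 0.83 for Egr2 and 0.78 for Fosb. The other sets hold 4 and 5 wild-type libraries, too few for a value of their own. Taken as deviations from the means of the 3 sets (n = 16), r was 0.94 for Atf3, 0.79 for Fos, 0.71 for Fosb, 0.68 for Jun and 0.63 for Fosl2.

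**Figure D3:**
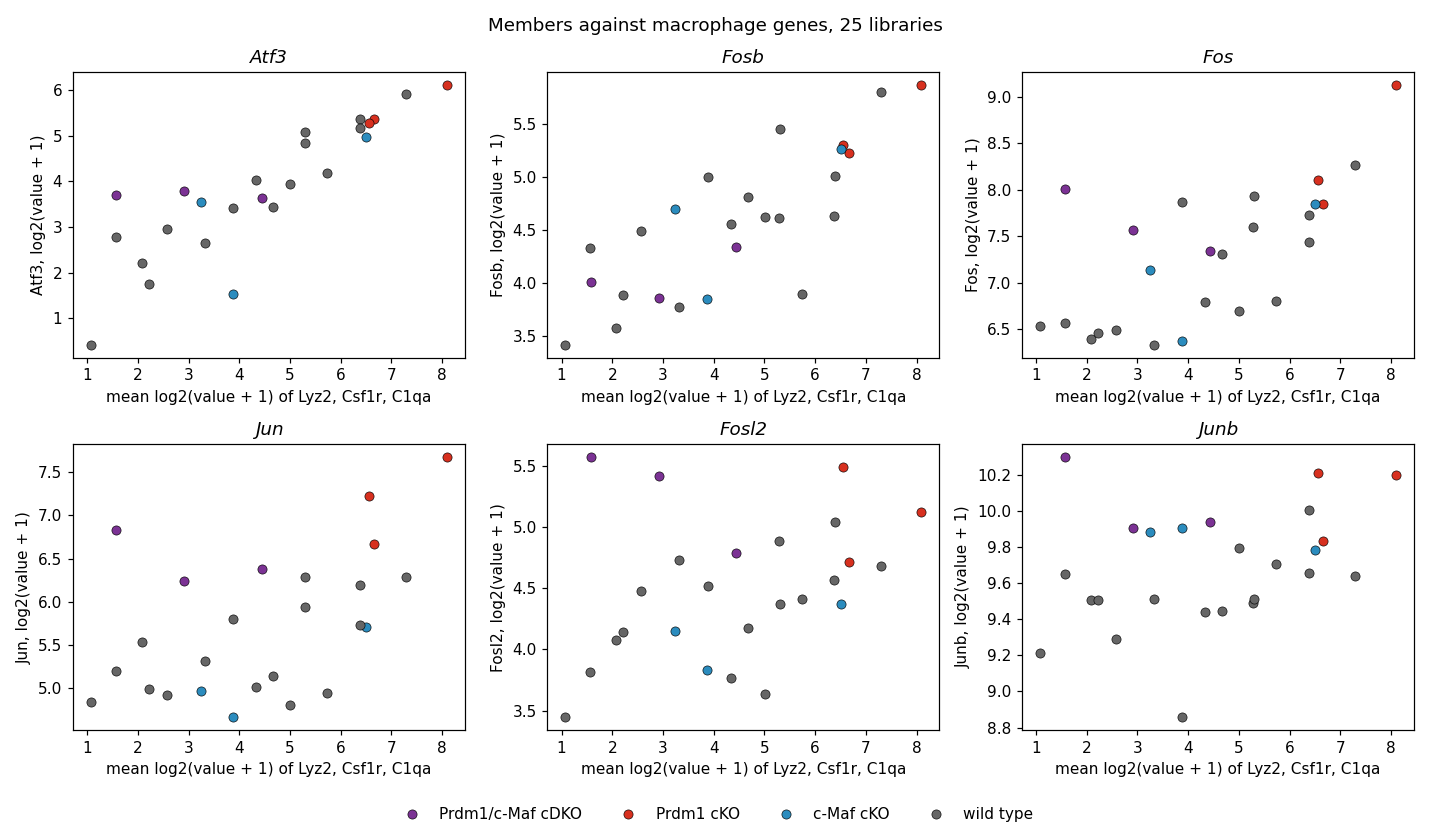
Log2(value + 1) of 6 early genes (y axes) against the mean log2(value + 1) of Lyz2, Csf1r and C1qa (x axes) in all 25 libraries, coloured by genotype. Atf3 rises with the macrophage mean over the whole range (r = 0.94 in the 16 wild-type libraries). The 3 cDKO libraries have a macrophage mean of 4.44 or less. Before transformation their lowest values are 74.6 for Jun, 26.7 for Fosl2 and 958 for Junb. The highest wild-type values of these genes are 77.1, 31.9 and 1029, so the groups overlap.

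The early genes fell into groups that varied together in wild type. Of the 45 pairs, 11 had an adjusted permutation p under 0.05 by Pearson's r, all 11 with positive r, and 7 of them also by Spearman's rho. These 7 were Fos with Fosb (r = 0.87), with Jun (0.84) and with Atf3 (0.77), Fosb with Atf3 (0.80), Fosl2 with Jun (0.69), Egr1 with Egr2 (0.78) and Egr1 with Ier2 (0.65). As deviations from the set means, these r were 0.85, 0.84, 0.77, 0.80, 0.64, 0.75 and 0.86, in the same order. Without the 2 libraries farthest from the median of the gene named first, they were 0.78, 0.75, 0.69, 0.67, 0.60, 0.73 and 0.76. Of the remaining 4 pairs, Junb with Ier2 (r = 0.66) had r = 0.25 without the 2 libraries farthest from the median of Junb.

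Between the 3 runs of wild-type columns 2 of 10 differed by limma's moderated F-test, where 2.75% of all genes did. Jund had means of 2.64 ± 0.89 in set 1, 5.41 ± 0.87 in set 2 and 1.42 ± 0.70 in set 3 (adjusted p = 0.00693). Jun had 59.9 ± 16.3 in set 1, 29.7 ± 1.94 in set 2 and 36.9 ± 10.8 in set 3 (SD, n = 7, 4 and 5, adjusted p = 0.0215). Jund was thus highest in the wild-type run beside c-Maf cKO, and Jun in that beside Prdm1 cKO. Without B5, B7 or B8 the count was 1 of 10.

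By likeness over all 25 libraries, genes with a high Pearson r to the mean of the 10 included Zfp36 (0.96), Kdm6b (0.90), H2-DMa (0.89) and Krt80 (0.87). These correlations share libraries and depth and are descriptions only. Fos was nearest to Zfp36 and App (0.91 and 0.89), Fosb to Ctsh, LOC100038947 and Pld4 (0.90, 0.89 and 0.88), and Atf3 to the MHC class II gene H2-Eb1, to Plbd1 and to Csf1r (0.91, 0.89 and 0.89). Jun was nearest to Zfp36, Socs3 and Aff1 (0.88, 0.88 and 0.87), Fosl2 to Aff1, Ssbp2 and Thada (0.89, 0.87 and 0.87), and Junb to Ppp1r15a, Tnfaip3 and Csrnp1 (0.86, 0.81 and 0.80). Egr1 was nearest to Trex1, Nr4a1 and Slfn2 (0.81, 0.80 and 0.78), Egr2 to Nr4a1, Gm2a and Ctsa (0.78, 0.76 and 0.75), Ier2 to Cd69, Npc2 and Mxd1 (0.80, 0.80 and 0.79), and Jund to Ctdp1, Hnrnpab and Smarcd2 (0.90, 0.89 and 0.88).

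Other genes of the pathway were read from lists by role. The shares of all genes tested that were called higher and lower are 5.09% and 6.85% in cDKO and 1.58% and 1.87% in Prdm1 cKO. Among 12 tested partners of AP-1 (bZIP genes such as Batf and Bach2), 2 were higher and 0 lower in cDKO, with a median log2 fold change of 0.25. Bach2, a bZIP repressor that competes for AP-1 sites in T cells, averaged 9.15 ± 1.40 in cDKO and 3.45 ± 1.38 in wild type (1.24, adjusted p = 0.00265), and Mafk, a small Maf protein, 37.1 ± 9.38 and 22.7 ± 6.16 (0.71, adjusted p = 0.0455). The Mafk call ended without any of 13 libraries, among them A1 (adjusted p = 0.199) and A2 (adjusted p = 0.296). In Prdm1 cKO 2 of 12 were higher and 0 lower, with a median of 0.48: Bach2 with a mean of 7.87 ± 2.25 (1.03, adjusted p = 0.0297) and Fosl1, which encodes Fra-1, with 1.56 (adjusted p = 0.0288). Fosl1 rests on A5 at 14.4, since the other 2 Prdm1 cKO libraries had 1.27 and 1.33 and wild type reached 2.41, and without A5 its adjusted p was 0.291. Bach2 had an adjusted p of 0.194 without A6 and 0.106 without A9. With the macrophage genes as covariate neither passed (adjusted p = 0.245 for Bach2 and 0.224 for Fosl1), and with the column set neither did (0.115 and 0.114). Of the 13 settings other than left-out libraries, Bach2 passed in 7 and Fosl1 in 6 in Prdm1 cKO, and Bach2 in 12 in cDKO. In c-Maf cKO 0 of 12 were called.

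Among 32 other immediate early genes, 6 were higher and 2 lower in cDKO, with a median of 0.34. The higher ones included Klf2, a factor of resting T cells (22.2 ± 13.7 in cDKO and 6.97 ± 3.52 in wild type, 1.53, adjusted p = 0.0201), the mRNA decay factor Zfp36l1 (146 ± 14.1 and 67.7 ± 16.6, 1.14, adjusted p = 0.000226), the phosphatase subunit Ppp1r15a (230 ± 55.5 and 116 ± 17.6, 0.97, adjusted p = 0.000254) and the antiproliferative Btg1 (0.94, adjusted p = 0.0249). Lower were the nuclear receptor Nr4a2, at 13.5 to 14.7 in cDKO against 20.8 to 89.9 in wild type (-1.85, adjusted p = 0.000271), and the G protein regulator Rgs1 (-0.90, adjusted p = 0.0492). Nr4a2 thus had every cDKO library below all wild-type libraries, as had 2.16% of all genes, and was also lower than in Prdm1 cKO (-1.69, adjusted p = 0.0478), as were 0.327% of all genes. Leaving out A2 ended the calls of Klf2 (adjusted p = 0.253) and Btg1 (0.253), leaving out A1 that of Btg1 (0.0926), and the Rgs1 call ended without any of 20 libraries. Of the 14 settings other than left-out libraries, Zfp36l1 and Ppp1r15a passed in 14, Nr4a2 in 13, Klf2 in 12, Btg1 in 11 and Rgs1 in 2.

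In Prdm1 cKO 6 of the 32 were higher and 0 lower, with a median of 0.65. These were Klf4 (6.86 ± 2.50 in Prdm1 cKO and 1.71 ± 0.95 in wild type, 1.57, adjusted p = 0.00916), Zfp36, an mRNA decay factor (168 ± 83.1 and 66.3 ± 25.7, 1.29, adjusted p = 0.0236), Nfkbiz, an atypical IκB protein (0.98, adjusted p = 0.0139), Zfp36l1 (0.91, adjusted p = 0.00716), the activation marker Cd69 (180 ± 55.7 and 98.8 ± 27.4, 0.85, adjusted p = 0.0303) and Ppp1r15a (0.85, adjusted p = 0.00396). With the macrophage genes as covariate 0 of these 6 passed. The calls held in 10 of 14 such settings for Ppp1r15a, 8 for Zfp36l1 and Nfkbiz and 7 for Zfp36 and Cd69, and in 7 of 13 for Klf4. Without A9 0 of the 6 passed (adjusted p = 0.0941 for Klf4, 0.223 for Zfp36, 0.156 for Nfkbiz, 0.0626 for Zfp36l1, 0.215 for Cd69 and 0.0661 for Ppp1r15a), and without A6 4 of them did not (0.0954 for Zfp36, 0.0650 for Nfkbiz, 0.182 for Cd69 and 0.0512 for Ppp1r15a). In c-Maf cKO 0 of 32 were called, with a median of 0.23.

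**Figure D4:**
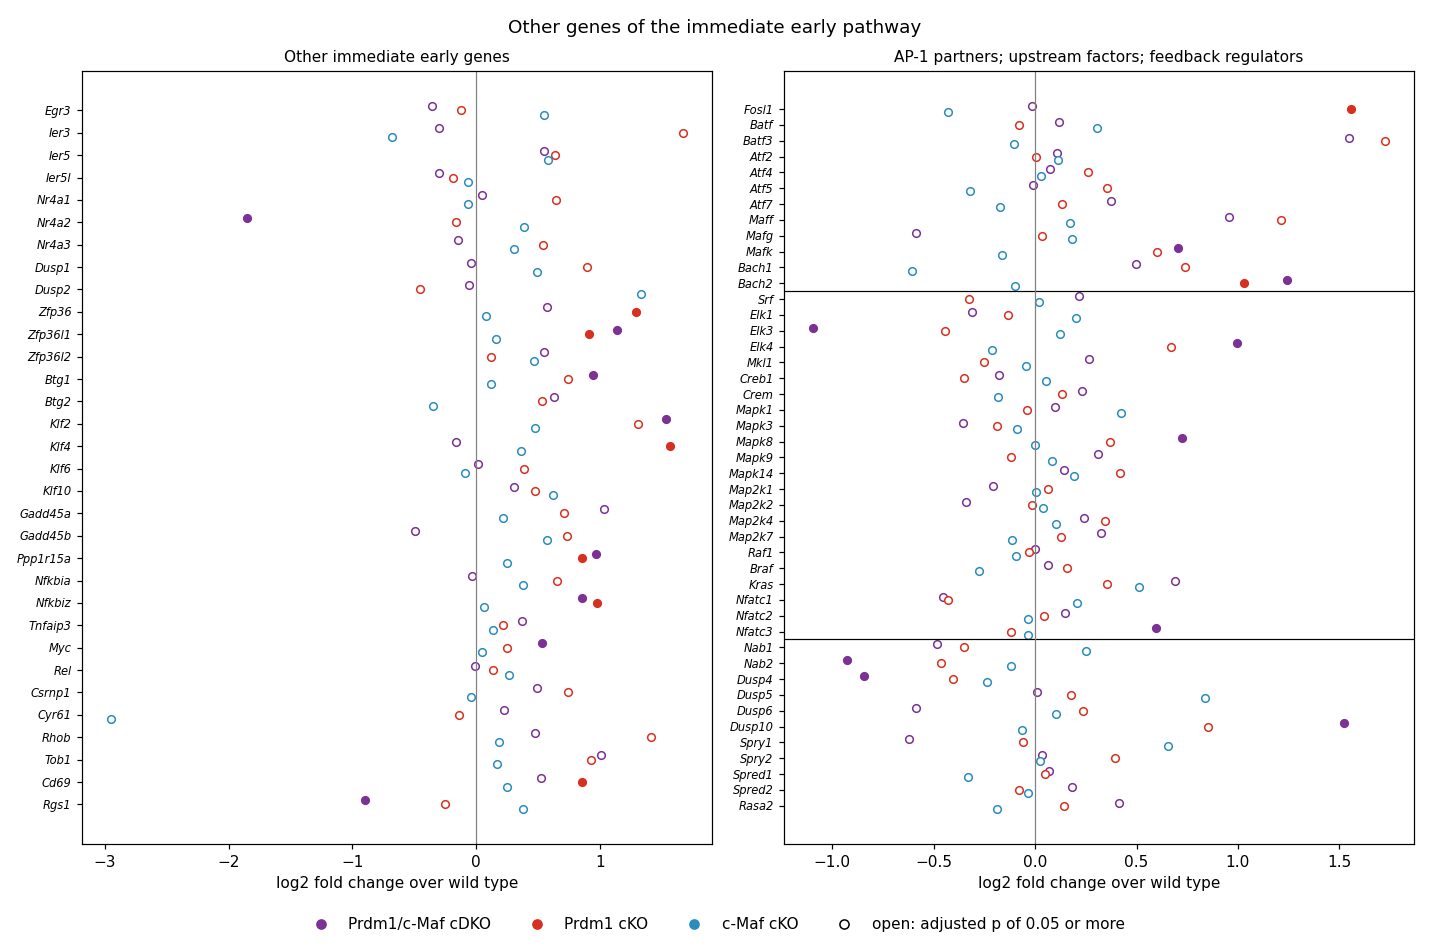
Log2 fold change against wild type (x axis) of other genes of the pathway (y axis) in each knockout genotype. The genes are the other immediate early genes, the partners of AP-1, the upstream factors and kinases, and the feedback regulators. Filled points passed limma's test. The other immediate early genes have a median of 0.34 for cDKO, 0.65 for Prdm1 cKO and 0.23 for c-Maf cKO.

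Of 22 upstream factors and kinases, 3 were higher and 1 lower in cDKO, with a median of 0.14. Elk4, an SRF partner, averaged 41.1 ± 3.43 in cDKO and 20.5 ± 4.27 in wild type (0.99, adjusted p = 0.0018), the Jun kinase gene Mapk8 4.19 ± 0.61 and 2.17 ± 0.55 (0.73, adjusted p = 0.0163), and Nfatc3 37.5 ± 0.58 and 24.8 ± 4.44 (0.60, adjusted p = 0.00903). Elk3, which can repress at SRF sites, was lower at 4.79 ± 2.10 in cDKO and 11.2 ± 2.91 in wild type (-1.10, adjusted p = 0.00545). The calls of Elk3 (adjusted p = 0.120) and Nfatc3 (0.0623) ended without A2, and that of Mapk8 without C2 (0.0933), A1 (0.0533) or A2 (0.0676). Of the 14 settings other than left-out libraries, Elk4 passed in 14, Elk3 in 11 and Nfatc3 in 10, and Mapk8 passed in 10 of 13. Neither single knockout had any of the 22 called (0 of 22 each).

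Of 11 feedback regulators, 1 was higher and 2 lower in cDKO, with a median of 0.01. The MAP kinase phosphatase Dusp10, which acts on Jun and p38 kinases, averaged 68.5 ± 16.6 in cDKO and 23.9 ± 7.58 in wild type (1.52, adjusted p = 0.000965) and passed in all 39 alternatives run. Dusp4, another MAP kinase phosphatase, was lower at 16.7 ± 8.35 in cDKO and 28.3 ± 4.94 in wild type (-0.84, adjusted p = 0.00891), and so was Nab2, a corepressor of Egr proteins, at 2.80 ± 0.96 and 6.37 ± 2.17 (-0.93, adjusted p = 0.0298). Without C2 the adjusted p was 0.235 for Dusp4 and 0.165 for Nab2, and without A2 it was 0.133 for Nab2. Of the settings other than left-out libraries, Dusp4 passed in 10 of 14, with an adjusted p of up to 0.4803 when rescaled to the CD3 genes, and Nab2 in 5 of 13. Of 11 heat shock genes, Dnajb1 was called higher in cDKO (0.95, adjusted p = 0.0441), a call that ended without any of 14 libraries, A1 and A2 among them, and that held in 6 of 14 other settings. In Prdm1 cKO and c-Maf cKO 0 genes of either list were called.

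Between the knockout groups, the list genes called in cDKO against c-Maf cKO were Bach2 (1.34), Zfp36l1 (0.98), Ppp1r15a (0.73), Elk4 (1.21), Nfatc3 (0.63) and Dusp10 (1.59), all higher, and Nr4a2 (-2.23), Rgs1 (-1.28) and Elk3 (-1.22), all lower, on the log2 scale, where 3.78% of all genes were called higher and 5.61% lower. In Prdm1 cKO against c-Maf cKO Fosl1 was called (1.99, adjusted p = 0.0480), with the single high library named above.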

How the data were processed

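Bulk RNA of tumour-infiltrating CD8+ T cells was measured in 25 libraries. Per the labels' protocols, 5 µL of lysate, from about 2000 cells, went through bead cleanup and an adapted SMART-Seq 2 protocol, which amplifies cDNA from little RNA. The submitters' processing notes name TopHat, RSEM, DESeq and the mouse build mm9, without versions or order. The authors deposited a normalised signal per gene, not counts, and no source used here states its scale. Low values scale with transcript length (10th percentile of values above 0 of 0.42 in the shortest and 0.06 in the longest quartile, 21732 symbols matched to GENCODE transcripts), so levels are compared within genes only. Count tests, counting intervals and floors were not used, since depth is unknown.

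Columns were assigned to groups by the genotype in their names; 0 columns were left unmapped and 0 pairs were identical. Values were taken as log2(value + 1), which understates the change of low genes. The 12251 symbols that reached a value of 1 in 3 or more libraries entered limma 3.58.1 in R 4.3.3 (empirical Bayes, trend and robust options) in 1 model of 4 groups without covariate, with 7 contrasts and Benjamini-Hochberg adjustment over all of them. The fit was tested on simulated data. Members were also compared within column sets by exact permutation of the difference of mean log2 values. Correlations used 100000 permutations (scipy 1.17.1). Alternatives were pseudocounts of 0.1 and 10, no filter and a minimum of 10, quantile normalisation, rescaling to the CD3 genes, plain empirical Bayes, covariates (column set, code letter, macrophage genes) and leaving out each library. The whole macrophage list, macrophage genes with column set, erythroid markers, and fits within 1 column set were added after seeing the data. The 10 genes, the lists by role and the marker lists were chosen with earlier results of these data known. Named outside the 10 are called genes of the lists (at most 6 per list and comparison, by size of change) and, by likeness, the 5 genes nearest to their mean and 3 nearest to each, of which 1 gene is not reported here. Marker lists of dendritic cells, B cells, neutrophils, melanoma, CD4 and regulatory T cells and NK cells were also read.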

Additional observations from a re-analysis of the deposited data

Results flagged for a closer look

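Single wild-type libraries stood apart from the others of their column set in 3 of 30 groups of values tested by Dixon's gap criterion; chance alone sets apart about 1 group in 20. In column set 1, Junb was 1029 in A4, against 718 to 805 in the other 6 wild-type libraries. Ier2 was 294 in the same library, against 169.7 to 212 in the others. In column set 2, Egr2 was 7.83 in B9, against 2.83 to 3.45 in the other 3 wild-type libraries. Leaving out A4 gave a call of Ier2 in cDKO (0.54, adjusted p = 0.0371) and in Prdm1 cKO (0.64, adjusted p = 0.0324), both on the log2 scale against wild type.

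In the fit without covariate, the effects of 2 knockouts against wild type differed for Jun and Fosl2, by limma's test of the difference. Jun was higher by 1.37 in cDKO than in c-Maf cKO (adjusted p = 0.0269) and by 2.08 in Prdm1 cKO than in c-Maf cKO (adjusted p = 0.0153), and Fosl2 by 1.14 in cDKO than in c-Maf cKO (adjusted p = 0.0300). These groups stand in different column sets, and set and genotype cannot be told apart except through the wild-type libraries. With the column set as covariate, none of the early genes was called in these comparisons.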

How the results depend on the processing

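No paired analysis was possible because the column names carry no replicate numbers. The depth of the libraries is unknown. Of 39 alternatives each, the calls against wild type held in 33 (Jun), 35 (Fosl2) and 35 (Junb) in cDKO and in 36 (Jun), 31 (Egr2) and 28 (Junb) in Prdm1 cKO, and the direction of these 6 in all 39. Of the 39, 25 each left out a single library. In the 14 other settings the cDKO calls held in 11 (Jun), 12 (Fosl2) and 11 (Junb). Those in Prdm1 cKO held in 11 (Jun), 8 (Egr2) and 5 (Junb) of the 14. The causes of the changes below were not tested. With a minimum of 10, Jund was not tested.

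Counts of the 10 genes called moved as follows. In cDKO against wild type (3) the count was 0 with the code letter, 1 with erythroid markers and 5 with the whole macrophage list as covariate, and 0 to 4 when single libraries were left out (0 without A2). In Prdm1 cKO against wild type (3) it was 1 with the column set or the code letter as covariate and in its own column set only, 0 with the macrophage genes, the whole macrophage list, or macrophage genes and column set, and 1 to 6 when single libraries were left out. In cDKO against Prdm1 cKO (0) it was 1 with a pseudocount of 10 and with the code letter. In cDKO against c-Maf cKO (2) it was 0 with no filter, with the column set, the code letter, macrophage genes and column set, or erythroid markers, and 0 to 2 without single libraries. In Prdm1 cKO against c-Maf cKO (1) it was 3 when rescaled to the CD3 genes, 0 with the column set, the code letter, the macrophage genes, the whole macrophage list, macrophage genes and column set, or erythroid markers, and 0 to 2 without single libraries. Between the wild-type column sets (2) it was 1 with no filter or a minimum of 10, 0 when rescaled to the CD3 genes, and 1 to 2 without single libraries. Of 5 genes related to the macrophage mean, 3 were left by Pearson's r without the 2 farthest libraries, while Junb and Ier2 came to pass by Spearman's rho.

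Rescaling to the CD3 genes puts the median of all genes at 0.31 for cDKO, 0.39 for Prdm1 cKO and -0.19 for c-Maf cKO. It left 946 genes higher and 184 lower in cDKO, against 624 and 839 as reported, and 597 and 57 in Prdm1 cKO, against 194 and 229. Of all genes, 1463 were called in cDKO, but 693 with erythroid markers, 329 in its own set, 738 without A1 and 511 without A2. In Prdm1 cKO 423 were called, but 59 with the column set, 36 with the code letter, 13 with the macrophage genes or the whole list, 11 with macrophage genes and column set, 217 with erythroid markers, 33 in its own set and 78 to 689 without single libraries. In c-Maf cKO 0 were called, and 17 with no filter, 6 with a pseudocount of 0.1, 4 with plain empirical Bayes and 1 with a pseudocount of 10 or in its own set. Between knockout genotypes, the counts ran from 3 to 142 (cDKO against Prdm1 cKO, 48 as reported), 432 to 1312 (cDKO against c-Maf cKO, 1150) and 5 to 322 (Prdm1 cKO against c-Maf cKO, 187) when single libraries were left out.

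Log2 fold changes of genes that were not called changed sign as follows. In cDKO, Atf3 had -0.12 with a pseudocount of 10 and -0.95 with the code letter, Jund -0.019 with the code letter, and Egr2 0.043 when rescaled to the CD3 genes. Egr1 had -0.32 with the column set or in its own set, -0.16 with the code letter, -0.32 with macrophage genes and column set and -0.21 with erythroid markers. In Prdm1 cKO, Jund had -0.20 with the macrophage genes and -0.29 with the whole list, and Atf3 -0.023, -0.28 and, with macrophage genes and column set, -0.25. In c-Maf cKO with the column set (also in its own set) and with macrophage genes and column set, Fosl2 had 0.13 and 0.10, Jun 0.17 and 0.14, Jund -0.037 and -0.048 and Egr1 0.16 and 0.14, and Egr1 had 0.012 with erythroid markers. Fos there had -0.043 with the macrophage genes, -0.19 when rescaled, -0.025 under quantile normalisation and -0.072 with the whole list, Fosb -0.12 when rescaled and -0.0034 with the whole list, and Ier2 -0.20 when rescaled and -0.015 under quantile normalisation. Without single libraries, Atf3 ran from -0.15 to 0.22 and Egr1 from -0.21 to 0.22 in cDKO, and Jund from -0.034 to 0.17 in Prdm1 cKO. For c-Maf cKO, Fos ran from -0.32 to 0.42, Fosb from -0.22 to 0.49, Atf3 from -1.10 to 0.63, Egr1 from -0.35 to 0.11 and Ier2 from -0.055 to 0.099.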

Other observations

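Markers of further cell types were read beside the early genes. Melanoma transcripts, summed over 6 markers, ran from 97.8 to 1316 in cDKO, 657 to 1318 in Prdm1 cKO, 12.8 to 573 in c-Maf cKO and 6.69 to 3085 in wild type, and 0 of 6 were called in each comparison with wild type. Dendritic cell transcripts, also over 6 markers, reached 5.08 to 13.8 in cDKO, 15.6 to 36.6 in Prdm1 cKO, 5.56 to 19.8 in c-Maf cKO and 5.36 to 61.8 in wild type, with 0 called. Of 3 B cell markers tested, 1 was higher in cDKO, where the 4 listed markers summed to 8.54 to 10.7. They summed to 8.47 to 12.5 in Prdm1 cKO and 1.06 to 2.10 in c-Maf cKO, with 0 called, and to 0.37 to 9.85 in wild type. Neutrophil markers summed to 9.60 to 12.6 in cDKO, 8.83 to 39.2 in Prdm1 cKO, 6.64 to 10.3 in c-Maf cKO and 3.96 to 18.6 in wild type. Cd4 and Foxp3 together reached 8.51 at most, in a wild-type library, with 0 called, and of the 2 NK cell markers the 1 tested was not called in any comparison with wild type.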
